A study of Mus musculus with 12 samples.

Results

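Mouse oocytes at the germinal vesicle (GV) stage were compared between mice without amphiregulin (Areg-/-) and wild-type mice, before either had received an ovulatory stimulus. The comparison rests on 6 of the 12 arrays of the study, 3 Areg-/- and 3 wild-type, chosen by their titles, and covers 16575 genes. Both genotypes carried the strain label C57BL/6J 129Sv. Follicle growth was stimulated in all mice with PMSG, and the GV oocytes were taken 48 h later at hCG 0 h. The other 6 arrays hold metaphase II (MII) oocytes of the same genotypes at hCG 14 h, hCG standing in for the ovulatory hormone surge. The labels name the allele as Areg -/- and say no more of how it was made. The arrays are titled as biological replicates, but how many animals or oocytes went into one is not stated, so every p-value reflects array-to-array spread only.

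The measured RNA was polysome-bound mRNA, the mRNA carrying several ribosomes and taken as being translated. A difference in it can come from the amount of a transcript or from its ribosome loading, and no array of unfractionated RNA was used here. The values are log2 intensities from the authors' RMA procedure, so a difference is one of a transcript's share of the array's signal. Brightness also depends on the probe, so levels of different genes compare only roughly.

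A GV oocyte is arrested in meiotic prophase and is held there by cAMP, which is sustained by signals from the surrounding follicle cells. It makes almost no new mRNA late in growth, and its later protein synthesis draws on stored mRNA that is loaded onto ribosomes on demand. Amphiregulin is a ligand of the EGF receptor that granulosa cells make once the ovulatory surge has raised their cAMP. In the follicle it acts, with epiregulin and betacellulin, on cumulus cells around the oocyte. At hCG 0 h the surge has not come, so the comparison asks whether the oocyte's translated mRNA already differs by genotype before that signal. The promoter of Areg is printed because it carries the element through which cAMP is known to drive the gene. It is the RefSeq window of 250 bases before to 50 after the gene's start, build GRCm38.p6, chr5:91139349-91139648, plus strand. The capitals mark the cAMP response element, TGACGTCA, which reads the same on both strands.
Areg: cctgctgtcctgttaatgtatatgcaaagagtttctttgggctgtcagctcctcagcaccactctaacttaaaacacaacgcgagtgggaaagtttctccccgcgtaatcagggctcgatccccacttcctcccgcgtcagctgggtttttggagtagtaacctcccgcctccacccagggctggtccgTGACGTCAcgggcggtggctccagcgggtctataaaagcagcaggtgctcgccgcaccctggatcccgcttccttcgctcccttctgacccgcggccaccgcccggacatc
The element starts 61 bases before the start of the gene, and it was found in 588 of 32851 RefSeq promoter windows of this length (1.79%).

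In GV oocytes of both genotypes Areg itself was barely above the floor of the measurement. It read 2.08, 2.30 and 2.70 in wild type and 2.40, 2.60 and 2.47 in Areg-/- (log2). The groups overlapped, and the difference was 0.13 ± 0.24 (SE, n = 3 arrays per group), 95% interval -0.41 to 0.67. So dim a signal in wild type gives no check on which arrays are Areg-/-. The oocyte label could be checked: 10 of 10 measured oocyte markers, among them the zona pellucida gene Zp3, the growth factor gene Gdf9 and the maternal-effect gene Nlrp5, lay between 10.58 and 14.26 on every GV array. Each was at or above the 94.5th percentile of all genes.

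The 2 genotypes could hardly be told apart as whole arrays. Across genes, Pearson's r was 0.950 to 0.976 between arrays of one genotype and 0.943 to 0.973 between genotypes. Array medians were 5.87 ± 0.01 in wild type and 5.90 ± 0.03 in Areg-/- (SD, n = 3). The spread of values within an array, its interquartile range, was 4.44 ± 0.35 and 4.59 ± 0.16 (exact two-sided permutation p = 0.70; the smallest p that 3 against 3 allows is 0.10). Wild-type GV 3 had the narrowest spread, 4.03 against 4.41 to 4.72 on the other 5 arrays. The 3' end of the Gapdh control exceeded its 5' end, a measure affected by RNA quality, by 2.00 ± 0.31 and 2.48 ± 0.75 (exact permutation p = 0.40). Areg-/- GV 2 had the largest value, 3.33, against 2.20 and 1.91 on the other Areg-/- arrays. The same measure of the beta-actin control went the other way, 0.36 ± 0.81 in wild type and 0.05 ± 0.56 in Areg-/- (SD, exact permutation p = 0.60).

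No gene differed between the genotypes at GV after adjustment. By limma, fitted to all 12 arrays, 0 of 16575 genes had a Benjamini-Hochberg adjusted p under 0.05 (0% called). At an unadjusted p under 0.05 there were 589 genes (3.55%), 325 higher (1.96%) and 264 lower (1.59%) in Areg-/-. The median difference of all genes was -0.02, with 7890 genes higher and 8685 lower. The 3 Areg-/- arrays all lay above the 3 wild-type arrays in 844 genes (5.09%) and all below in 787 (4.75%), together 9.84% of genes.

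The absence of calls does not show that the genotypes were alike, and the intervals say how much difference the arrays leave room for. For 7367 genes (44.4%) the 95% interval of the difference lay within 1 log2 unit of 0, that is within 2-fold either way. With genes sorted by mean level into 4 bins of equal size, this share was 73.5% in the dimmest bin, then 50.8% and 19.0%, and 34.5% in the brightest. The typical difference was 0.22 (median size), against a median SE of 0.37 and a median SD between arrays of 0.35 in wild type and 0.30 in Areg-/-. A total of 774 genes differed by more than 1 log2 unit in either direction and 62 by more than 2, none of them called.

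**Figure D1:**
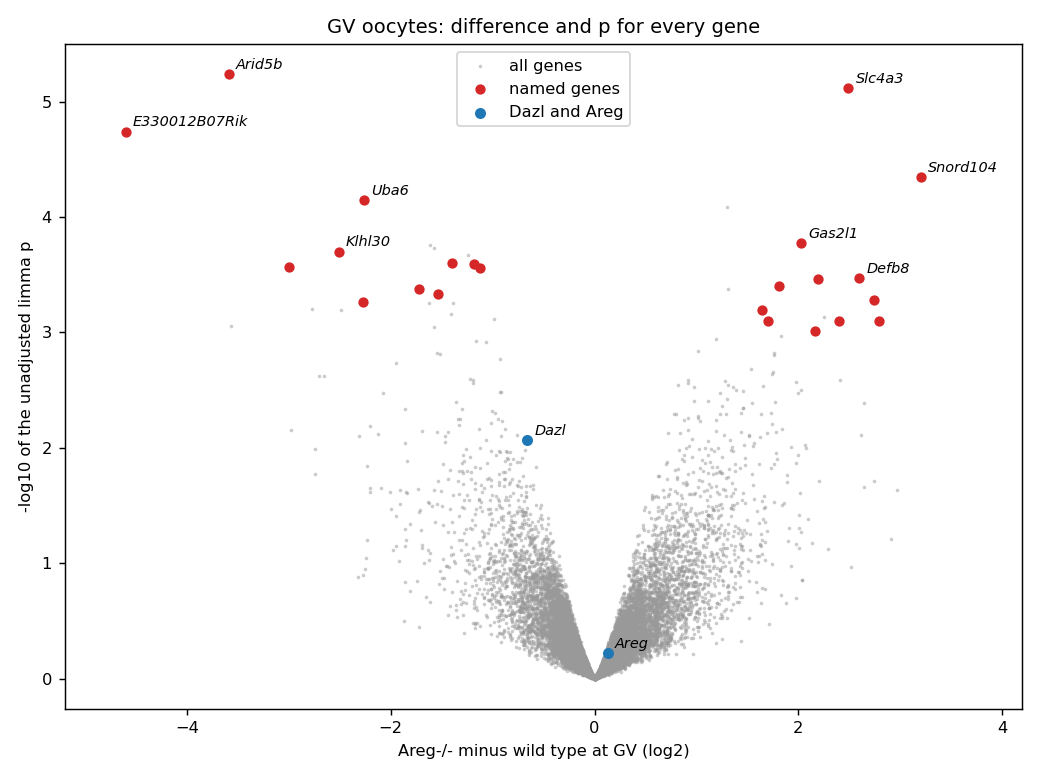
Difference between Areg-/- and wild-type GV oocytes (x axis, log2) against the -log10 of the unadjusted limma p (y axis), a point per gene. Red points are named genes and blue points Dazl and Areg. Arid5b and Slc4a3 stand highest, each at an adjusted p of 0.063, and no gene passes the threshold.

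The genes nearest to the threshold were of varied function. The 12 of smallest p in each direction were taken, among those with a group mean of at least 6 and no overlap between the genotypes' arrays. None passed, with unadjusted p from 5.78e-06 to 0.000968 and adjusted p from 0.063 to 0.43. Because they were picked for their size and separation, their differences are descriptions.

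Arid5b, a DNA-binding transcriptional coactivator, had the smallest p. It read 9.08, 9.36 and 9.40 in wild type and 4.98, 6.20 and 5.88 in Areg-/-. Every Areg-/- array was far below every wild-type array. The difference was -3.59 ± 0.44, a 12.1-fold lower level (adjusted p = 0.063 by limma). It passed when the dimmer genes, those below the median level, were left untested (adjusted p = 0.046) and with array weights (0.0071). Its adjusted p ranged from 0.0071 to 0.22 over the alternatives.

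The largest difference among the 24 belonged to E330012B07Rik, whose probe set is named by a non-coding RefSeq transcript. It read 8.78, 9.26 and 7.73 in wild type and 3.67, 3.06 and 5.23 in Areg-/-, a difference of -4.60 ± 0.64 (limma adjusted p = 0.10). All 3 Areg-/- arrays were low, with the third the highest of them. Without that array, Areg-/- GV 3, the gene passed (-5.22, adjusted p = 0.047). Uba6, an activating enzyme at the head of a ubiquitin cascade, read 6.86, 7.13 and 6.97 in wild type and 4.69, 5.10 and 4.40 in Areg-/-, with tight arrays in both groups. Its difference was -2.26 ± 0.37 (adjusted p = 0.23).

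Hjurp, the chaperone that places the centromeric histone CENP-A, read 9.14, 9.26 and 9.09 against 8.11, 7.85 and 7.98, a difference of -1.18 ± 0.22. Crnkl1, a component of the spliceosome, read 7.51, 7.86 and 7.72 against 6.33, 6.61 and 6.76, a difference of -1.12 ± 0.21. Both were small but even shifts, with arrays of a group within 0.5 of each other. The motor gene Myo10 stood at -1.72 ± 0.35 and Btla, a lymphocyte receptor gene, at -3.00 ± 0.57. Ttpal (-1.40), Klhl30 (-2.51), the chemerin receptor gene Cmklr1 (-1.54) and Tmem267 (-2.27) were also lower, with SE from 0.26 to 0.47.

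Among genes with higher values in Areg-/-, the anion exchanger gene Slc4a3 had the smallest p. It read 7.66, 7.63 and 7.81 in wild type and 9.85, 10.01 and 10.73 in Areg-/-. The wild-type arrays were nearly equal and all Areg-/- arrays were clearly above them. The difference was 2.49 ± 0.32, 5.64-fold (limma adjusted p = 0.063, and 0.0071 to 0.32 over the alternatives). Snord104, a small nucleolar RNA that guides modification of ribosomal RNA, read 5.47, 5.74 and 3.57 against 7.84, 8.61 and 7.93 (3.20 ± 0.49). Wild-type GV 3 was the lowest of its arrays by about as much as separated the other wild-type arrays from the knockout. The probe sets of Snord104 and E330012B07Rik are named by non-coding transcripts, so their differences are not taken as ones of translated mRNA.

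Tfe3, a transcription factor of lysosome genes, read 9.94, 10.09 and 9.87 in wild type and 11.85, 12.18 and 10.79 in Areg-/- (1.64 ± 0.35). Of the 3 knockout arrays the third was the closest to wild type. Gas2l1, a linker of actin and microtubules, differed by 2.03 ± 0.36, Cnksr3, a signalling scaffold, by 2.40 ± 0.52 and the beta-defensin gene Defb8 by 2.60 ± 0.51. The urothelial plaque gene Upk1a differed by 2.74 ± 0.57. It passed without wild-type GV 1, its highest wild-type array (3.53, limma adjusted p = 0.039). The ubiquitin ligase gene Rnf165 (1.81), Tceanc2 (2.19), Mcemp1 (1.70), the ER membrane gene Reep6 (2.16) and Tor1aip2 (2.79), whose product activates torsin at the ER membrane, complete the 12. For Tor1aip2 the difference came from 1 of its 5 probe sets, and the other 4 gave 0.16 each. For Gas2l1 the probe sets gave 2.03 or 0.14.

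**Figure D2:**
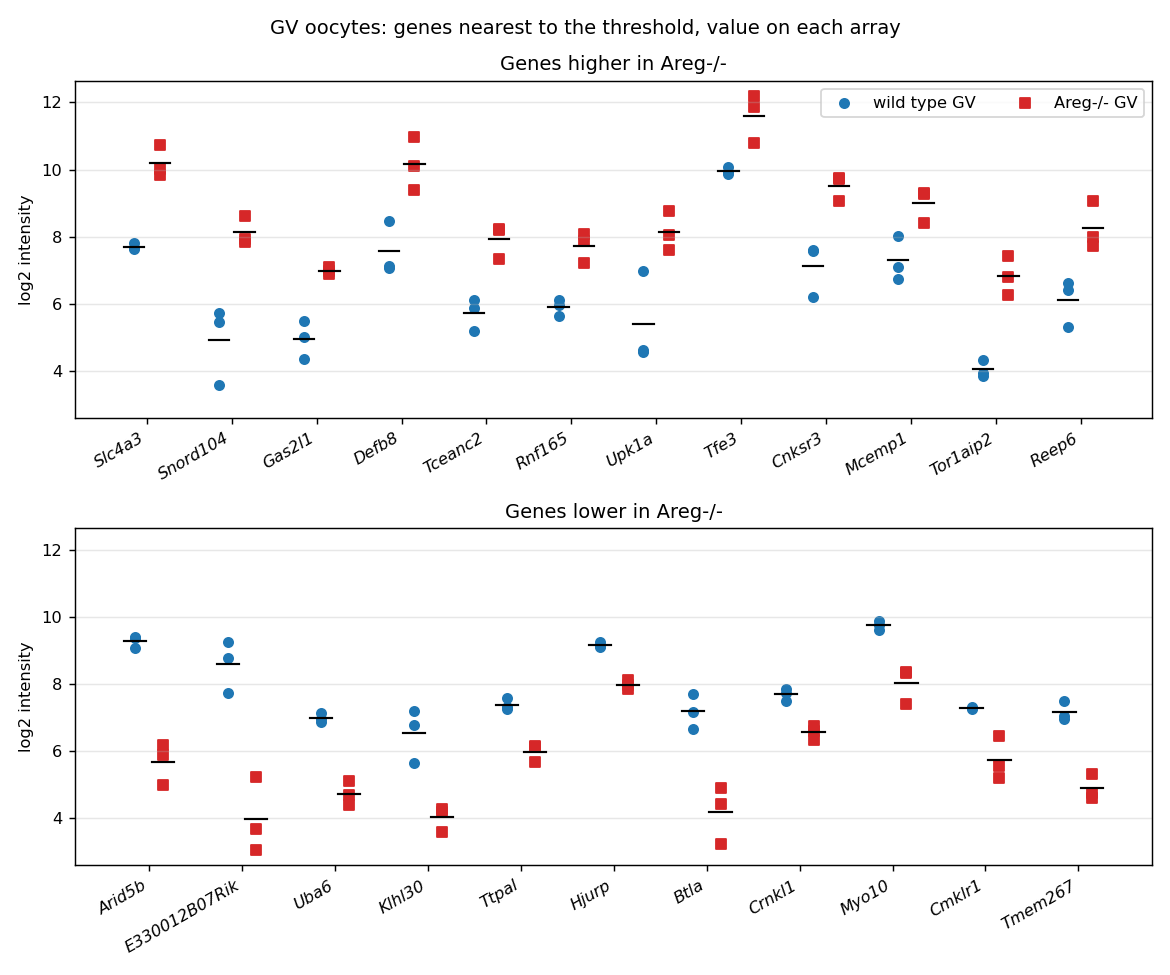
Value on each GV array (y axis, log2 intensity) of genes of smallest p higher in Areg-/- (top) and lower in Areg-/- (bottom). Blue circles are wild-type arrays, red squares Areg-/- arrays and black bars group means of 3 arrays. The genotypes do not overlap, by the rule of choice, while the gap between them ranges from wide (Slc4a3, Arid5b) to narrow (Mcemp1, with wild type up to 8.02 and Areg-/- from 8.40).

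The MII arrays, from other samples, give a further measurement of each of these 24 genes. Their genotype difference did not enter the choice, but their spread did, through the p-values of the fit to all 12 arrays. Of the 24, 21 differed in the same direction at MII (87.5%), as did 7583 of all 16575 genes (45.7%). At MII 10 of 16575 genes passed the limma test, 1 higher (0.00603%) and 9 lower (0.0543%), and 1024 (6.18%) had an unadjusted p under 0.05, 380 higher (2.29%) and 644 lower (3.89%). Of the 24 named genes 3 passed, all of them lower in Areg-/-, which is 12.5% of the 24 against 0.0603% of all genes. A gene with even arrays thus had a better chance to stand out in both comparisons, and the 3 calls are not independent of the choice. Across all genes the genotype differences at the 2 stages were nearly unrelated (Pearson r 0.0296, Spearman rho -0.037, n = 16575 genes, which are not independent replicates). Of the 589 genes with an unadjusted p under 0.05 at GV, 328 kept their direction at MII (55.7%). An unadjusted p under 0.05 at MII was found for 46 of the 589 in the same direction and for 17 in the opposite one.

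The 3 genes that passed at MII were Uba6, Crnkl1 and Arid5b. Uba6 read 7.18, 8.40 and 8.46 in wild-type MII oocytes and 4.84, 4.14 and 4.04 in Areg-/- ones, a difference of -3.68 ± 0.37 (limma adjusted p = 0.012). All Areg-/- arrays were below all wild-type arrays, as at GV. The Uba6 call held under 19 of 20 alternatives and was lost with the replicate number as a block (adjusted p = 0.055). Crnkl1 read 8.92, 9.13 and 8.70 against 6.91, 6.96 and 6.98, a difference of -1.96 ± 0.21 (adjusted p = 0.014), and its call held under 16 of 20 alternatives. It was lost with the block, with trend and robust, without wild-type MII 1 and without Areg-/- MII 2. Arid5b read 10.06, 8.55 and 9.29 against 5.66, 6.87 and 6.13, a difference of -3.08 ± 0.44 (adjusted p = 0.045). Its call held under 5 of 20 alternatives, with adjusted p from 0.029 to 0.16. It was lost when any 1 array other than wild-type MII 2 was left out.

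Other genes kept their direction at MII without passing. Btla stood at -3.00 at GV and -2.84 at MII, E330012B07Rik at -4.60 and -2.04, Cnksr3 at 2.40 and 2.41, and Hjurp at -1.18 and -0.91. For some the MII difference was near 0: Slc4a3 stood at 2.49 at GV and 0.14 at MII and Snord104 at 3.20 and 0.17. Reep6 (2.16 and -1.81), Klhl30 (-2.51 and 0.98) and Tfe3 (1.64 and -0.52) had opposite signs. No difference between stages was called. The test of it, the genotype difference at MII minus that at GV, passed in 0 of 16575 genes (0% called, 772 or 4.66% at an unadjusted p under 0.05), with an adjusted p of 0.36 for Reep6 and 0.45 for both Klhl30 and Slc4a3.

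**Figure D3:**
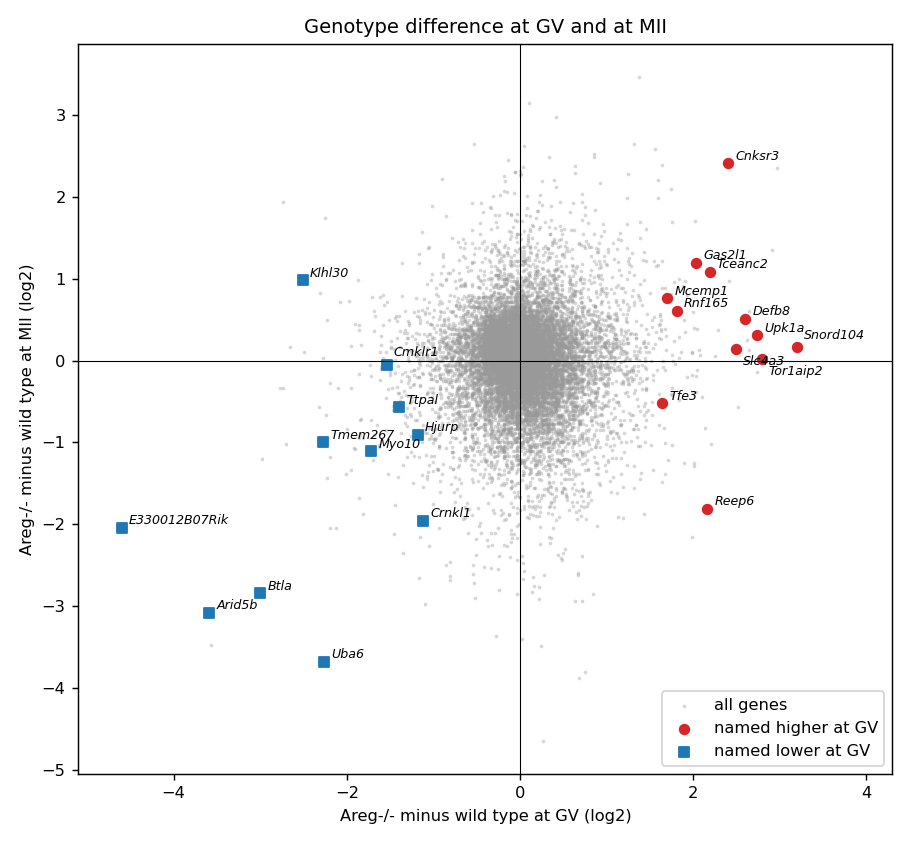
Difference between Areg-/- and wild type at GV (x axis) and at MII (y axis), both log2, a point per gene. Red circles are genes named as higher at GV and blue squares those named as lower. Points in the lower left and upper right keep their direction, as all labelled genes but Tfe3, Reep6 and Klhl30 do, with Uba6, Arid5b, Btla and E330012B07Rik farthest down on the left.

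Of the genes known for translation during maturation that are given here, Dazl had the smallest p at GV. Dazl, an RNA-binding activator of translation in germ cells, read 10.29, 10.31 and 10.57 in wild type and 9.71, 9.96 and 9.52 in Areg-/-. All Areg-/- arrays were lower, as in 4.75% of all genes. The difference was -0.66 ± 0.21 (95% interval -1.12 to -0.20, 1.58-fold, unadjusted p = 0.00859), and Dazl did not pass (limma adjusted p = 1.0). At MII the arrays did not overlap either, as in 8.30% of all genes (4.14% above and 4.16% below), with a difference of -0.69 (limma adjusted p = 0.48). The spindle factor gene Tpx2, whose translation Dazl is known to drive, differed by -0.01 ± 0.30, with overlapping arrays. The cytokine gene Il7 differed by 0.21 ± 0.38, the cyclin gene Ccnb1 by 0.04 ± 0.26 and Mos, the kinase gene of MII arrest, by 0.15 ± 0.27. Their 95% intervals reached from -0.66 to 1.05 between them.

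No member of the 18 gene lists passed the test at GV, so the lists are described by their medians and by the members of smallest p, beside a median of -0.02 over all genes. That median of all genes was 0.02 without wild-type GV 3 and 0.07 over genes above the median level. EGF ligands, receptors and shedding enzymes had a median difference of -0.004 over 17 measured members. They were mostly dim, at percentile 33.8 over all genes. For 13 of them (76.5%, against 44.4% of all genes) the 95% interval lay within 1 log2 unit of 0. That share was 73.5% in the dimmest bin of all genes and 50.8% in the next, so it is not particular to this list. The ligand genes beside Areg, named here after their values were seen, lay between 2.25 and 3.14 on every GV array: Ereg differed by 0.04, Btc by -0.12 and Epgn by -0.004. The receptor gene Egfr read 8.66, 8.42 and 9.03 in wild type and 8.45, 8.39 and 8.10 in Areg-/- (-0.39 ± 0.25). The arrays overlapped. The smallest p belonged to the receptor gene Erbb4 (-0.70 ± 0.35, unadjusted p = 0.0716), and the shedding protease gene Adam17 differed by 0.42 ± 0.25.

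The list of cAMP control of prophase arrest, 18 genes, had a median of 0.09, and 0.002 without wild-type GV 3. It holds genes that make cAMP and genes that break it down, so its median has no single sense for arrest. Adcy9, an adenylyl cyclase gene, differed by 0.81 ± 0.35 at GV and by -1.60 at MII. The regulatory subunit gene Prkar2b of protein kinase A differed by 0.86 ± 0.56 and the phosphodiesterase gene Pde4d by 0.49 ± 0.41, both with overlapping arrays. Of 36 cyclin, CDK and APC/C genes, 23 were higher and 13 lower in Areg-/-, with a median of 0.03. Wee2, the oocyte kinase gene that restrains Cdk1, read 10.31, 10.22 and 10.64 in wild type and 11.33, 10.95 and 10.77 in Areg-/- (0.63 ± 0.23). The groups were close but did not overlap. The APC/C subunit gene Anapc10 differed by 0.84 ± 0.38 and Plk1 by -0.75 ± 0.49.

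Spindle and kinetochore genes (29) had a median of 0.11, with the chromosomal passenger gene Cdca8 at 0.41 ± 0.21 and the motor gene Kif11 at 0.38 ± 0.23. The cohesin protector gene Sgo2a was at 2.03 ± 0.94, a value set by Areg-/- GV 2, where it read 13.27 against 9.44 and 8.49 on the other knockout arrays. Genes of mRNA translation, storage and decay (31) had a median of -0.04, with 11 higher and 20 lower. The median was -0.13 without wild-type GV 3, -0.13 after a further quantile normalisation and -0.11 over the brighter members. The same normalisation turned the medians of the cAMP, cyclin and spindle lists to -0.01, -0.02 and -0.003. After Dazl, the poly(A)-binding protein gene Pabpc1 (-0.46 ± 0.30) and the decapping enzyme gene Dcp2 (-0.51 ± 0.36) had the smallest p. The 20 zona, oocyte-secreted and junction genes had a median of -0.05. The oocyte transcription factor gene Figla read 10.97, 11.15 and 10.58 against 11.41, 11.43 and 11.54 (0.56 ± 0.22), and Kit differed by -0.38 ± 0.35. Zp3r differed by -0.34 ± 0.35 with overlapping arrays. It read only 4.08 to 5.63, far below the list's array median of 12.47 in wild type.

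Maternal-effect factors (29) had a median of 0.02. Khdc3, a member of the subcortical maternal complex, read 9.31, 9.31 and 9.25 in wild type and 9.85, 10.05 and 10.10 in Areg-/- (0.71 ± 0.34). Its arrays were close within each group and did not overlap. Hsf1, the heat shock factor gene, differed by 0.63 ± 0.41 and Uhrf1, a cofactor of DNA methylation, by -0.47 ± 0.30. Meiotic axis, cohesin and recombination genes (23) had a median of 0.01, with the cohesin genes Stag1 at 1.02 ± 0.56 and Smc1b at 0.76 ± 0.64.

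In the PI3K-AKT-mTOR pathway, through which growth factor signals reach the translation machinery, 21 of 32 genes were higher and 11 lower, with a median of 0.12, and 0.04 without wild-type GV 3. Deptor, an inhibitor of mTOR, read 8.95, 8.96 and 7.41 in wild type and 9.92, 9.38 and 9.85 in Areg-/- (1.28 ± 0.48, unadjusted p = 0.023). Its wild-type low was again the third array. Pik3cb, a catalytic subunit of PI3K, differed by -1.30 ± 0.63, with overlapping arrays.

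Immediate-early and MAPK feedback genes (23) had a median of -0.22, the lowest of the lists with more than 2 measured genes. Egr1, an immediate-early transcription factor, read 9.86, 9.72 and 11.04 in wild type and 9.19, 9.09 and 8.85 in Areg-/- (-1.17 ± 0.49, unadjusted p = 0.0378). The groups did not overlap, with wild-type GV 3 the highest. Dusp6, a phosphatase that ends ERK signalling, read 3.96, 3.57 and 3.93 against 3.60, 2.21 and 2.62 (-1.01 ± 0.39). It was dim and its arrays overlapped. Dusp1, of the same family, differed by 0.40 ± 0.21. The list's median was 0.02 without wild-type GV 3, and 0.09 over its brighter members (those above the median level of all genes).

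The lists of energy metabolism and ribosomal proteins consist largely of bright genes, so their medians stand beside 0.07 for all genes above the median level, and 0.02 for all genes without wild-type GV 3. Of 74 subunits of oxidative phosphorylation, 52 were higher and 22 lower, with a median of 0.19, and 0.10 without wild-type GV 3. Ndufs5, a subunit of respiratory complex I, read 11.55, 11.86 and 10.79 against 12.32, 12.75 and 12.82 (1.23 ± 0.43, unadjusted p = 0.016), and it differed by 1.37 at MII. Atp5pb (1.30 ± 0.66) owed its value to Areg-/- GV 1, at 13.87 against 11.21 and 10.58, while Cox6a1 differed by 0.34 ± 0.20. Mitochondrial ribosomal proteins (70) had a median of 0.15, and 0.10 without wild-type GV 3, with Mrpl18 at 0.81 ± 0.29, Mrps21 at 1.07 ± 0.48 and Mrps2 at -0.90 ± 0.41. Cytosolic ribosomal proteins (29) had a median of 0.14, with Rpl32 at 0.63 ± 0.35, Rps6 at -1.02 ± 0.33 and Rpl23 at -0.76 ± 0.32. A further quantile normalisation brought the medians of these 3 lists to 0.11, 0.05 and 0.07. Proteasome subunits (34) had a median of 0.02, with Psma7 at 0.49 ± 0.22, Psmd1 at 0.78 ± 0.38 and the thymic subunit gene Psmb11 at -0.84 ± 0.31.

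**Figure D4:**
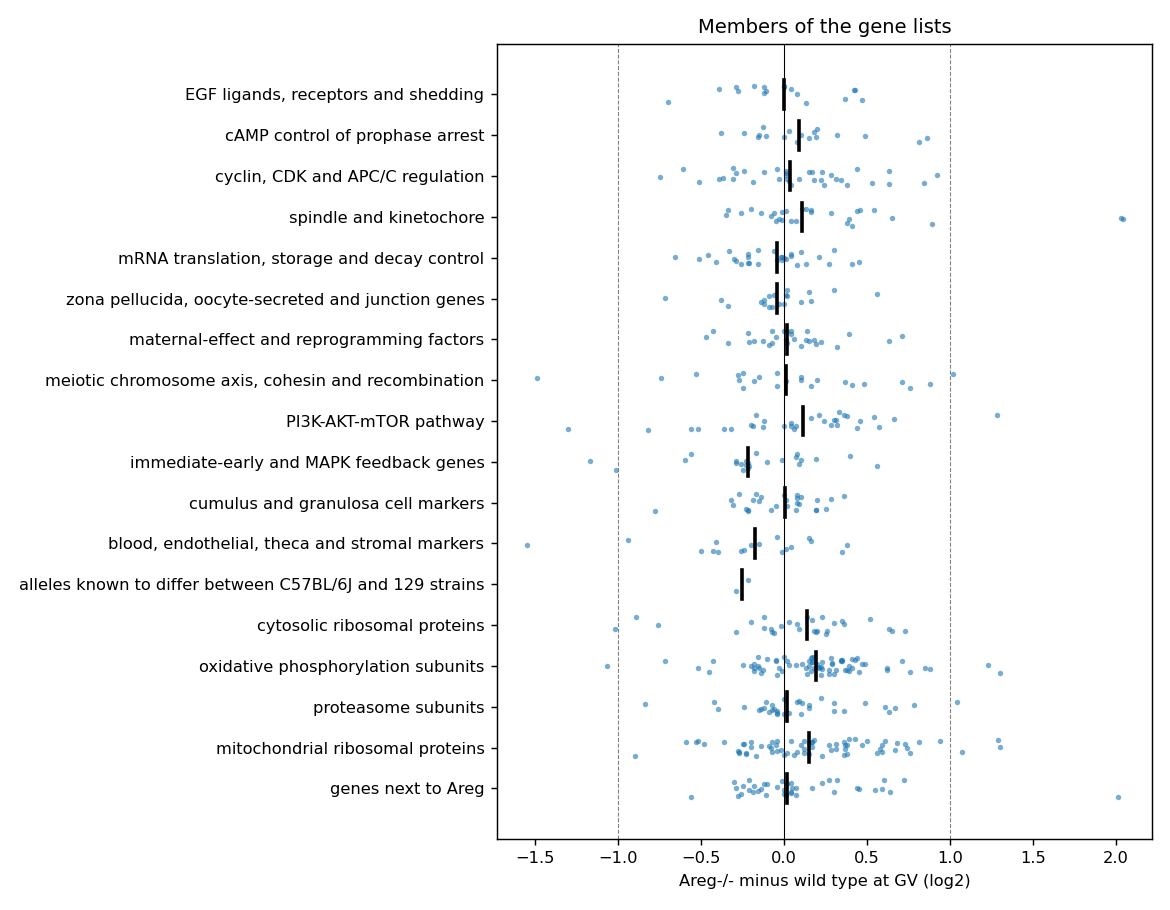
Difference between Areg-/- and wild type at GV (x axis, log2) of every measured member of the 18 gene lists (rows). Points are genes, black bars list medians and dashed lines mark 1 log2 unit either way. The medians lie between -0.26 and 0.19, and most members lie within the dashed lines.

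Markers of other ovarian cells differed by list: the array medians of cumulus and granulosa markers overlapped between the genotypes, and those of blood, endothelial, theca and stromal markers did not. The 28 cumulus and granulosa markers had a median difference of 0.001 and array medians of 4.36 to 4.80 in wild type and 4.19 to 4.99 in Areg-/-. That level corresponds to percentile 30.3 over all genes. The members of smallest p were Cyp11a1 (-0.78 ± 0.46), Serpine2 (0.25 ± 0.21) and Has2 (-0.27 ± 0.23). Granulosa genes were uneven between replicates: Inha, an inhibin subunit gene named after its values were seen, read 5.81, 5.85 and 8.95 in Areg-/- and 5.64, 7.61 and 7.10 in wild type. The number of such cells on an array and their RNA per cell cannot be told apart here. The 18 blood, endothelial, theca and stromal markers had array medians of 4.71 to 4.76 in wild type and 4.35 to 4.55 in Areg-/-, without overlap (exact permutation p = 0.10, the smallest possible). Their level corresponds to percentile 34.1 over all genes. The list had a median difference of -0.18, with 6 members higher and 12 lower, and -0.07 without wild-type GV 3. The adhesion molecule gene Pecam1 led it at 9.40, 9.23 and 9.93 against 8.24, 8.66 and 8.83 (-0.94 ± 0.35, unadjusted p = 0.0209, and -2.05 at MII with a limma adjusted p of 0.10). Kdr, a vascular receptor gene (-1.55 ± 0.63), owed most of its difference to wild-type GV 2, and Acta2 differed by -0.43 ± 0.21. Other bright members, named after their values were seen, went the other way with overlapping arrays: Tek by 0.35 ± 0.90 and C1qb by 0.38 ± 0.53. The part of these markers in the other results was not tested.

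The genes beside Areg on chromosome 5 were looked at because a targeted allele is passed on together with its neighbours. Of the 40 measured genes, 20 on either side, 21 were higher and 19 lower in Areg-/-, with a median of 0.02 and 0 called. Over the neighbours above the median level of all genes the median was 0.27, beside 0.07 for all genes so chosen. The 40 lay at percentile 31.1 over all genes, so only the smaller part of them enters that median. It was not tested. Thap6, the fourth measured gene after Areg, read 2.12, 2.00 and 2.21 in wild type and 3.21, 2.51 and 2.78 in Areg-/- (0.72 ± 0.22, unadjusted p = 0.00749), all near the floor. Fam47e read 8.50, 8.98 and 8.28 against 10.53, 12.09 and 9.17 (2.01 ± 0.86), with a wide spread among knockout arrays, and Shroom3 differed by 0.59 ± 0.36. Uba6, described earlier, lies on the same chromosome, 61 measured genes before Areg. Cenpc1, which lies 63 measured genes before Areg, named after its values were seen, differed by -0.34 at GV and -2.53 at MII. Gpat3, a gene of glycerolipid synthesis 52 measured genes after Areg, was likewise named after its values were seen. It differed by -1.39 at GV and 0.16 at MII. The unadjusted limma p at GV was 0.539 for Cenpc1 and 0.000555 for Gpat3. Uba6, Cenpc1 and Gpat3 lie outside the 40 genes and were picked by their values, not by position. Stap1, between Uba6 and Cenpc1, differed by -0.2 at GV and 0.07 at MII. Abraxas1 and Nkx6-1, on either side of Gpat3, differed by -0.28 and -0.09 at GV. A part of linkage to Areg in these differences was not tested. Of 4 genes with alleles known to differ between C57BL/6J and 129Sv mice, 2 were measured, Gabra2 (-0.29 ± 0.24) and Casp4 (-0.22 ± 0.24), both dim.

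**Figure D5:**
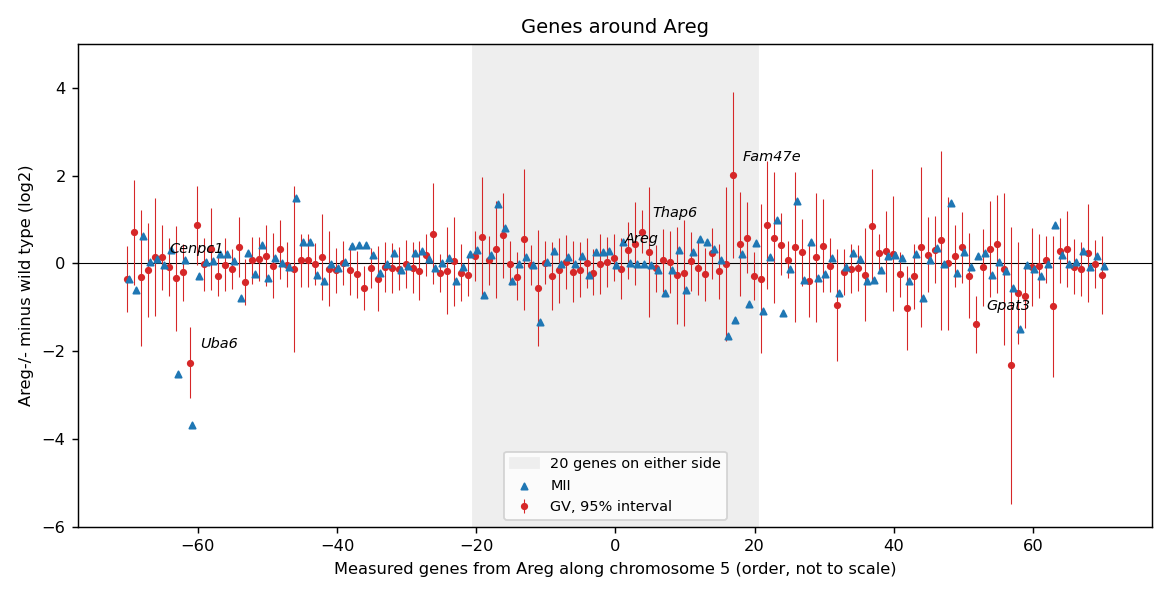
Difference between Areg-/- and wild type (y axis, log2) of measured genes by their order along chromosome 5 from Areg (x axis, number of genes, not to scale). Red points are GV differences with 95% intervals, blue triangles MII differences, and the grey band covers 20 genes on either side. Uba6, 61 genes before Areg, is lower at both stages, and the median of the 40 genes next to Areg at GV is 0.02 (0.27 over the brighter ones, the smaller part of them).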

How the data were processed

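Polysome-bound RNA of mouse oocytes was hybridised to Affymetrix mouse genome arrays, per the design text. The authors deposited log2 intensities, and the submitters' processing notes name RMA without options. The molecule field names total RNA and the source name polysome-bound transcripts, and the second was followed. Of 23950 probe sets, 64 were controls. Of the other 23886, named by RefSeq transcript, 21226 matched 1 gene symbol of the GRCm38.p6 table and 2660 none. The brightest probe set was kept per gene (16575 genes, 3019 with several). The values come with no detection call. Precision is set by how many arrays there are. No per-sample column was left unused (0).

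The fit was limma 3.58.1 in R 4.3.3 (lmFit, eBayes), a mean per group over 12 arrays, two-sided, with Benjamini-Hochberg adjustment over all genes and a threshold of 0.05, tested on simulated data. Errors are SE unless SD is named. Genes were named by rule: 6 always (Areg, Dazl, Tpx2, Il7, Ccnb1, Mos), all called ones up to 12 per direction and otherwise those of smallest p with a higher group mean of at least 6 and no overlap, and 3 per list. A few genes that the rule names are not reported here. Members, lists and this comparison were chosen with earlier results of these data known. A total of 21 alternatives were tried. Array measures were compared with scipy 1.17.1.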

Additional observations from a re-analysis of the deposited data

How the results depend on the processing

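The count of 0 called genes at GV stayed at 0 with trend and robust, a further quantile normalisation, median centring, the array spread as a covariate, the mean of all probe sets and the replicate block. It was 17 with array weights (5 higher and 12 lower, 13 of them among the 24 named genes), where wild-type GV 3 had a weight of 0.4746. It was 1 among genes above the median brightness (Arid5b) and 1 with the 6 GV arrays alone (Tox3). Leaving out 1 array gave 0 to 3, with 3 without Areg-/- GV 3 (Ctss, E330012B07Rik and Etfrf1) and 1 without wild-type GV 1 (Upk1a). The genotype difference at MII minus that at GV gave 0 to 1 with an array left out, and 0 otherwise. The count at MII of 10 was 0 with the replicate block, 5 with trend and robust, 16 after quantile normalisation and 2 to 32 with an array left out. The 24 genes kept their direction at GV under every alternative that tested them, and 19 to 21 of the 24 had the same direction at MII (15 of 17 among bright genes).

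Deviations of same-numbered GV arrays of the genotypes correlated at 0.185, 0.0314 and 0.258 for numbers 1 to 3. GV arrays of different numbers gave -0.231 to 0.119, so among GV arrays numbers 1 and 3 deviated together weakly. With the MII arrays the number did not sort the pairs. Wild-type GV 3 and wild-type MII 2 gave 0.233, and the same-numbered wild-type GV 2 and wild-type MII 2 gave -0.123. What the replicate numbers stand for is not stated, and a shared origin was not tested. The replicate block left the count at 0, with 679 genes at an unadjusted limma p under 0.05. Differences near 0 changed sign. Ccnb1 was -0.18 with array weights, -0.08 after quantile normalisation, -0.01 with the spread covariate and -0.23 to 0.27 with an array left out. Tpx2 was 0.12 with array weights, 0.04 with the covariate and -0.14 to 0.17 with an array left out. With an array left out, Areg ranged from -0.01 to 0.30, Zp3r from -0.61 to 0.06 (each changing sign only without wild-type GV 1) and Il7 from -0.002 to 0.48. The cause of these changes was not tested.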
